A study of Mus musculus with 9 samples.

Results

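The solute carrier genes expressed in FVB MOE cells, a mouse oviductal epithelial cell line, comprised 171 gene rows. They were chosen by their symbol, which begins with Slc and a digit or with Slco, and by a mean level of at least 1 FPKM over the 9 samples. FPKM counts fragments relative to transcript length and to the sample's mapped fragments, so levels can be compared between genes. The 171 rows were taken from 373 solute carrier rows and from 23332 gene rows in all. RNAseq compared DMSO, E2 and 4OHT with 3 samples in each condition. All cells were of the FVB strain, with no transgene or deletion given in the labels, were grown in medium with 17-beta-estradiol before the experiment, and were then kept for 48 h in phenol red free medium with charcoal stripped serum. They received 0.1% DMSO as solvent control, 1 nM 17-beta-estradiol (E2) or 100 nM 4-hydroxytamoxifen (4OHT, a selective estrogen receptor modulator dissolved in DMSO) for 24 h. The study describes the line as monoclonal and secretory, so every sample stemmed from 1 clone. The labels number the samples of each condition 1 to 3 and do not say that they came from separate cultures, so p-values measure the spread between these samples, which may be technical.

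Solute carriers move amino acids, sugars, ions, metals, nucleosides, organic anions and many other solutes across the plasma membrane and the membranes of organelles, mostly along or coupled to ion and solute gradients. Most members of the SLC25 family span the inner mitochondrial membrane. The SLC35 family brings nucleotide sugars into the Golgi apparatus and the endoplasmic reticulum, and the SLC30 and SLC39 families carry zinc in opposite directions. In the oviduct, secretory epithelial cells use transporters to set the composition of the luminal fluid, and E2 acts on these cells through the estrogen receptor.

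The label of an oviductal epithelial line was checked against marker genes. The simple epithelial keratins Krt7, Krt8, Krt18 and Krt19 ranged from 112 to 927 FPKM, and Pax8, a transcription factor of the Müllerian epithelium, from 105 to 150 FPKM. Epcam and Cdh1, which encode epithelial adhesion proteins, stayed at or below 0.138 and 0.422 FPKM in all 9 samples, so these defining markers were close to 0. The 6 epithelial genes summed to 1306 to 1449 FPKM in DMSO, 2171 to 2439 in E2 and 1330 to 1566 in 4OHT, and Pax8 and Ovgp1 to 109 to 144, 122 to 151 and 107 to 143 FPKM. Ovgp1, a product of oviduct secretory cells, lay between 1.44 and 2.61 FPKM. Of the ciliated cell list, Foxj1 lay between 8.95 and 15.9 FPKM, Tekt1 did not pass 0.188 FPKM, and the summed level of the 3 genes present was 14.9 to 17.7 FPKM in DMSO, 10.2 to 14.2 in E2 and 15.4 to 17.1 in 4OHT. The 3 markers of mesothelium or ovarian surface summed to 166 to 219 FPKM in DMSO, 141 to 192 in E2 and 173 to 213 in 4OHT. In DMSO and 4OHT this was above the sum of Pax8 and Ovgp1. Over the 9 samples Msln ranged from 99.1 to 188 FPKM, Wt1 from 26.3 to 45.3 and Upk3b from 1.31 to 3.51. The 4 stroma genes summed to 3.65 to 7.79 FPKM in DMSO, 10.7 to 23.2 in E2 and 5.21 to 8.51 in 4OHT, with Pdgfra and Col3a1 near 0 and most of the E2 sum from Dcn. The 2 immune genes summed to at most 4.01 FPKM in any sample with Ptprc near 0, and the 2 endothelial genes to at most 0.179 FPKM. The part of these lists in the differences described next was not tested. In bulk RNA, fewer cells of a type and less RNA per cell cannot be told apart. The FPKM files carry no read counts, so the depth behind a value is unknown and no counting interval is given. The study's own list of reads shows fewer trimmed reads for every 4OHT sample than for every DMSO sample, and the part of depth in the comparisons was not tested.

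The most abundant solute carrier transcripts belonged to mitochondria. Slc25a5 and Slc25a4, which encode ADP/ATP carriers, averaged 775 and 404 FPKM over the 9 samples, and Slc25a3, the mitochondrial phosphate carrier, averaged 743 FPKM. These 3 genes held 33.6% to 37.5% of the summed FPKM of the members in each sample. Other members over 100 FPKM were Slco2a1, a prostaglandin uptake carrier, at 319 FPKM, Slc25a39, a mitochondrial carrier, at 116 FPKM, the phosphate transporter Slc20a1 at 101 FPKM, and Slc3a2, the heavy chain of several amino acid exchangers, at 100.2 FPKM. These means include exact zeros, so Slc6a6, above 100 FPKM in every sample not listed at 0, falls outside this list. The row that joins Slc25a17 and St13 stood at 236 FPKM, and its level cannot be divided between these genes. It was counted with the mitochondrial carriers by its symbol alone. In all, 8 members lay over 100 FPKM, 96 over 10 and 12 under 2, with a median of 11.4 FPKM. Together the members held 0.960% to 1.02% of the summed FPKM of a sample. Because the level chose the members, these levels are a description. Just inside the limit were Slc43a2 at 1.33, row 2 of Slc24a5 at 1.35 and Slc22a17 at 1.37 FPKM, and just outside it row 2 of Slc16a4 at 0.982, Slc25a47 at 0.977 and Slc38a9 at 0.960 FPKM. Of the 202 rows left out, 30 were at 0 in all 9 samples.

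The classes by substrate differed in size and in level. Mitochondrial carriers were the most numerous with 35 members, followed by 22 for amino acids and peptides, 22 for inorganic ions and pH, 19 for nucleotide sugars and the SLC35 family, 16 for zinc and 16 for organic ions, amines and drugs. There were 9 members for nucleosides and vitamins, 8 for metals other than zinc, and 7 each for carboxylates, for sugars and polyols, and for lipids, choline and acetyl-CoA. A further 3 rows have a solute carrier symbol and encode no transporter: Slc7a6os and the PDZ scaffolds Slc9a3r1 and Slc9a3r2. Nearly every family row for metals was expressed (8 of 9), as were 35 of 44 mitochondrial carriers and 19 of 23 SLC35 rows, against 16 of 73 rows for organic ions, amines and drugs. The highest member of each other class was Slc48a1 (heme) at 77.2 FPKM, Slc44a2 (a choline transporter-like protein) at 88.4, Slc39a1 (zinc import) at 59.9, Slc9a3r1 at 57.8, Slc35b1 (a carrier of the endoplasmic reticulum) at 51.4, Slc29a1 (nucleosides) at 36.2, Slc2a1 (glucose) at 23.1 and Slc16a13 (monocarboxylate family) at 19.3 FPKM.

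**Figure D1:**
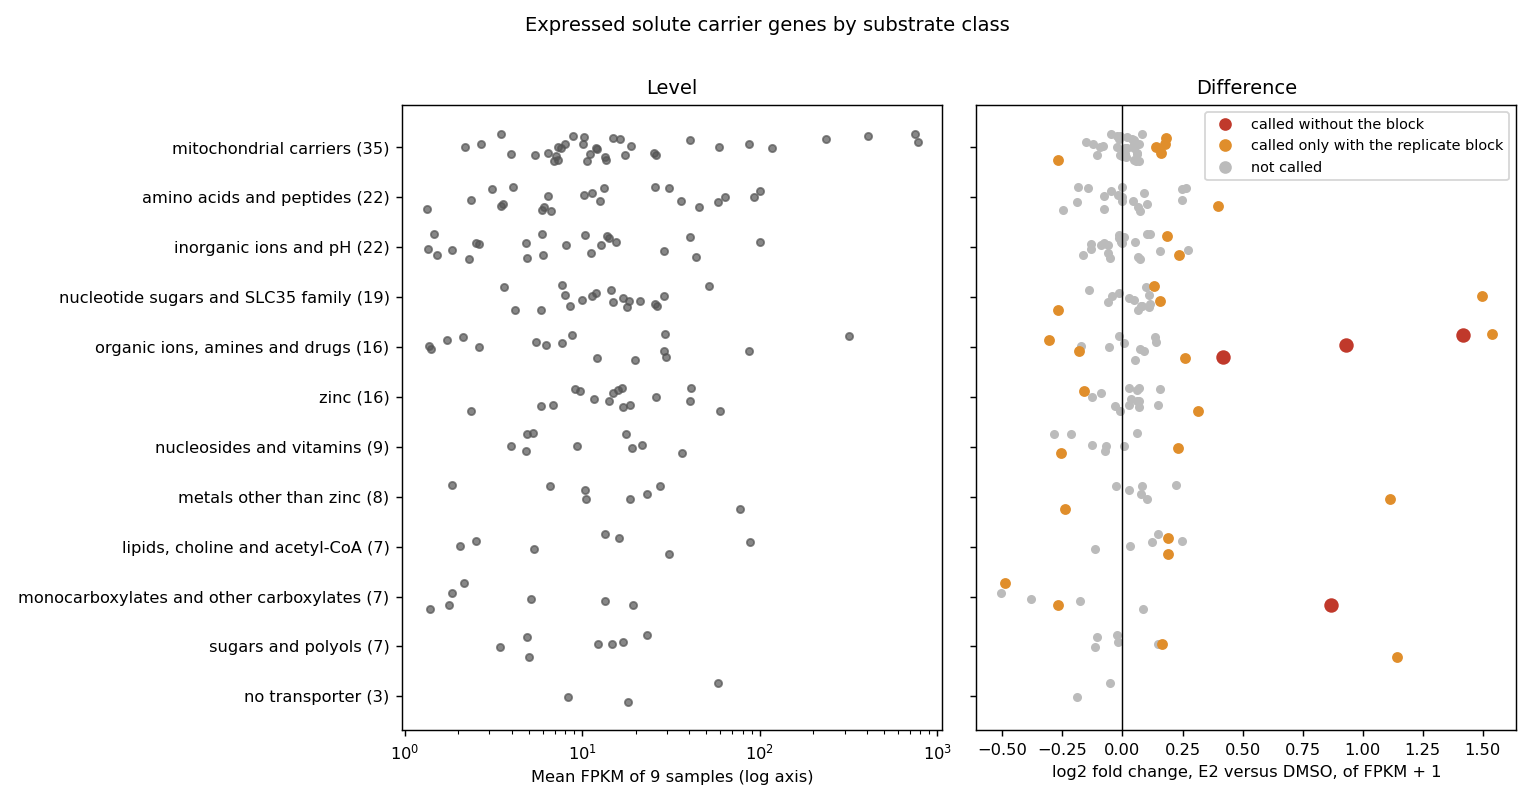
Expressed solute carrier genes by substrate class, with the number of members in parentheses. The left panel plots the mean FPKM of 9 samples on a log axis, where mitochondrial carriers reach 775 FPKM. The right panel plots the log2 fold change of FPKM + 1 for E2 versus DMSO for the 166 members without an exact 0, where 7 members lie above 0.5 on the log2 scale and 1 member, a row not called, lies below -0.5. Colours mark the calls by limma at an adjusted p under 0.05.

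The first comparison asked which transporter genes E2 changed. The test was limma on log2(FPKM + 1) of all 9 samples, with p adjusted by the Benjamini-Hochberg method over the 11339 rows with at least 1 FPKM in at least 3 samples, and a call at an adjusted p under 0.05. All 171 members were tested, and none had a condition mean under 1 FPKM. Without the replicate number in the fit, 4 members (2.34%) were called for E2 versus DMSO, all higher with E2, against a background of 0.512% of all rows tested. These were Slco4a1, Slc22a4, Slc16a6 and Slco3a1. With the replicate number as a block, 32 members (18.7%) were called against a background of 15.0%. Of these, 23 (13.5%) were higher, with a background of 10.4%, and 9 (5.26%) were lower, with a background of 4.63%. Without the 3 samples numbered 1, the blocked fit called 9 higher and 0 lower, and without DMSO replicate 2 it called 8 higher and 1 lower. With the block, the shares of the members thus stood near those of all rows. A further count without a test gave 55 members (32.2%) higher with E2 in all 3 same-numbered pairs and 41 (24.0%) lower, beside 28.1% and 24.3% of all rows. The median log2 fold change was 0.03 over the members and -0.00 over all rows tested. Most called differences were small: the median size with the block was 0.26 on the log2 scale, 7 of the 23 higher members reached 0.5, and the 16 others lay between 0.13 and 0.42.

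Carriers of organic ions held 3 of the 4 calls made without the block. Their class had 16 members, and 0.512% of all rows tested were called in that fit. Slco4a1 encodes a carrier of organic anions that takes up thyroid hormone and prostaglandins. Its FPKM was 4.29, 5.42 and 4.91 in DMSO, 14.8, 15.2 and 14.0 in E2, and 5.93, 8.16 and 6.34 in 4OHT, in the order of the replicate numbers. All 3 E2 samples stood far above the other 6, and each 4OHT sample stood above each DMSO sample. The mean rose from 4.88 ± 0.56 to 14.6 ± 0.58 FPKM with E2 (SD, n = 3), a ratio of 3.00. The log2 fold change of FPKM + 1 was 1.42 with an SE of 0.11 (limma, Benjamini-Hochberg adjusted p = 0.00487). It was called in each of the 9 fits that left out 1 sample.

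The sequences shown here belong to Slco4a1 and Slc22a4, which were called without the block and have RefSeq promoter windows that lie outside annotated exons. Slco4a1 is annotated at chr2:180456245-180474867 on the plus strand of GRCm38 (mm10), and Slc22a4 at chr11:53983123-54028090 on the minus strand. Each window is the 250 bases before a RefSeq start in GRCm38.p6, written 5′ to 3′ on the strand of the gene. The first Slco4a1 window, chr2:180455995-180456244, ends where the annotated gene begins. The second, chr2:180460728-180460977, lies inside the gene with 0 bases in annotated exons, that is in an intron of the longer transcript. The Slc22a4 window is chr11:54028105-54028354, upstream of the gene. Capitals mark the motif AGGTCA on either strand, which is an arm of the estrogen response element.
Slco4a1 window 1: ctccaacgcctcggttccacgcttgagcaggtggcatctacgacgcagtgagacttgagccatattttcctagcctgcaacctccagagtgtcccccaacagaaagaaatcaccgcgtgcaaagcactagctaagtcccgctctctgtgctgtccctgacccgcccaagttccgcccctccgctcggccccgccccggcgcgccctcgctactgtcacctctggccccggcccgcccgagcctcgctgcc
Slco4a1 window 2: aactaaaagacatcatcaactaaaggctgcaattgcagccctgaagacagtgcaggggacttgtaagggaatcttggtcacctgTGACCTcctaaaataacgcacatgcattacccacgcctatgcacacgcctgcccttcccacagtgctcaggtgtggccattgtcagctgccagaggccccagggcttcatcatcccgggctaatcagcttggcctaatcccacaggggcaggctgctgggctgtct
Slc22a4 window: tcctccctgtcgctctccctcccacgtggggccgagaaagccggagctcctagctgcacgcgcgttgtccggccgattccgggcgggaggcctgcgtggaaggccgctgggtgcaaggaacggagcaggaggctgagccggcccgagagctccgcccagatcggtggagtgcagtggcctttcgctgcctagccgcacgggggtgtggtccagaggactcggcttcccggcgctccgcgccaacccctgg
The motif appeared once, as TGACCT in the second Slco4a1 window, starting 166 bases before the start. On both strands, AGGTCA was present in 14.0% of all 32851 windows of this length and in 11.4% of the 184 windows found for 132 members. The palindrome GGTCANNNTGACC, whose arms overlap AGGTCA by 5 bases, was present in 0.0639% of all windows and in 0 of the 184. A match is a description of the letters only.

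Slc22a4 encodes the ergothioneine transporter OCTN1. It measured 3.91, 4.25 and 5.14 FPKM in DMSO, 8.37, 10.2 and 9.43 in E2, and 4.14, 4.70 and 5.77 in 4OHT. The E2 samples did not overlap with the others, while DMSO and 4OHT overlapped. The log2 fold change was 0.93 with an SE of 0.13 (limma, adjusted p = 0.0304). With 1 sample left out, it was called in 2 of 9 fits without the block and in 9 of 9 with it. Its neighbour Slc22a5, a carnitine transporter of the same family, measured 4.84 to 5.96 FPKM in DMSO and 5.66 to 6.46 in E2 and was not called against DMSO (limma, adjusted p = 0.598, with the block 0.0957). Slco3a1, another organic anion carrier, measured 26.4, 25.5 and 26.7 FPKM in DMSO, 39.1, 32.7 and 34.5 in E2, and 26.7, 27.9 and 27.9 in 4OHT. Its E2 samples stood above all others, with a log2 fold change of 0.42 and an SE of 0.07 (limma, adjusted p = 0.0481, with the block 0.00956). With 1 sample left out, it was called in 0 of 9 fits without the block and in 8 of 9 with it, and its unblocked adjusted p was 0.0523 with a pseudocount of 0.1, 0.0507 with upper-quartile scaling and 0.0643 without the filter. Slco2a1, the most abundant carrier of this class, measured 302 to 332 FPKM in DMSO, 296 to 328 in E2 and 307 to 342 in 4OHT, with no separation of the conditions.

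Slc14a1, the facilitative urea transporter UT-B, was among the members with the largest fold changes for E2. It measured 14.1, 16.2 and 21.3 FPKM in DMSO, 36.8, 67.2 and 53.9 in E2, and 11.6, 21.9 and 21.3 in 4OHT. Every E2 sample stood above every other sample, and sample 1 was the lowest of its condition throughout. The log2 fold change was 1.54 with an SE of 0.29. This was not called without the block (limma, adjusted p = 0.0915) and was called with it (limma, adjusted p = 0.00302).

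Other members with large differences came from several classes. Slc35e2, an orphan member of the SLC35 family, measured 12.8, 4.27 and 4.03 FPKM in DMSO, 29.5, 17.1 and 13.9 in E2, and 10.6, 5.34 and 5.01 in 4OHT. Sample 1 was the highest of every condition, and the lowest E2 sample still stood above the highest DMSO sample. The log2 fold change of 1.50 had an SE of 0.46 without the block and 0.13 with it (limma, adjusted p = 0.304 and 0.00185). Slc35e2 overlaps 3 other annotated genes.

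Slc41a2, a magnesium transporter, measured 13.7, 4.44 and 4.14 FPKM in DMSO, 26.7, 12.0 and 10.5 in E2, and 12.6, 5.55 and 4.63 in 4OHT. The conditions overlapped because sample 1 was far above samples 2 and 3 in each, yet E2 was the higher within every pair. The log2 fold change was 1.11, with an SE of 0.53 without the block and 0.08 with it (limma, adjusted p = 0.514 and 0.00108). Slc37a1, a sugar phosphate antiporter of the endoplasmic reticulum, measured 4.75, 2.08 and 2.95 FPKM in DMSO, 9.53, 7.61 and 7.34 in E2, and 4.96, 2.90 and 3.12 in 4OHT. Its E2 samples did not overlap with the others, and the log2 fold change was 1.14 (limma, adjusted p = 0.133, with the block 0.0029).

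Slc16a6, a monocarboxylate transporter that carries ketone bodies, was a weakly expressed member. It measured 1.32, 0.872 and 1.19 FPKM in DMSO, 3.59, 2.34 and 2.77 in E2, and 1.48, 1.14 and 1.26 in 4OHT. The E2 samples stood above all others, with a ratio of means of 2.57 and a log2 fold change of 0.87 on the FPKM + 1 scale, which understates the change at this level (limma, adjusted p = 0.0476, with the block 0.00124). With 1 sample left out, it was called in 0 of 9 fits without the block and in 9 of 9 with it, and its unblocked adjusted p was 0.0528 with a pseudocount of 0.1, 0.0539 with upper-quartile scaling and 0.0671 without the filter. Its annotation overlaps Amz2 and Arsg on the opposite strand. The libraries kept the strand, but whether counting used it is not given in the sources used here. Without the 3 samples numbered 1, an alternative chosen after the data were seen, 5 members were called for E2 versus DMSO without the block: Slco4a1, Slc14a1, Slc35e2, Slc37a1 and Slc41a2.

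**Figure D2:**
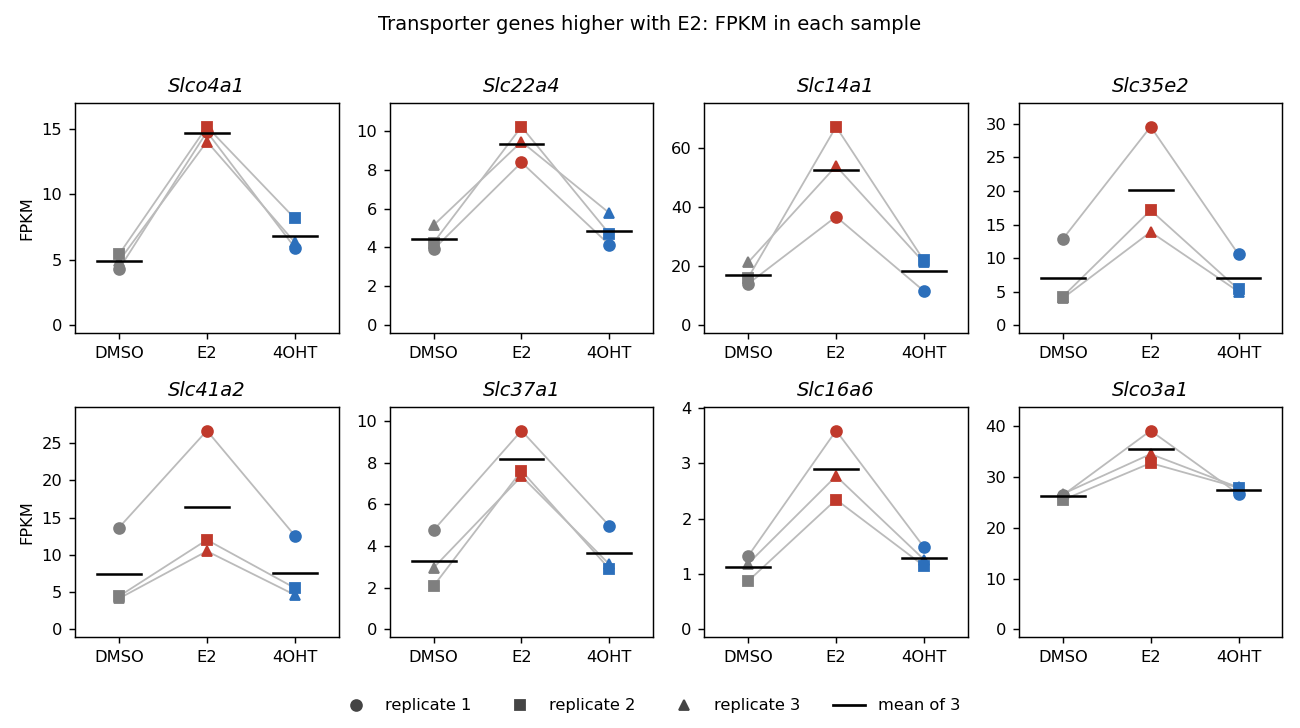
FPKM of 8 transporter genes in each of the 9 samples, by condition. Points are samples, with a shape for each replicate number, grey lines join samples of the same number, and black bars are the means of 3. The E2 samples stand above the others of their number in all 8 panels. Sample 1 is the highest of each condition for Slc35e2, Slc41a2, Slc37a1 and Slc16a6, and the lowest for Slc14a1 and Slc22a4.

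Smaller differences called with the block reached several other substrates. Slc39a1, the zinc importer ZIP1, measured 59.9, 47.4 and 54.4 FPKM in DMSO and 70.9, 60.5 and 70.2 in E2, so that each E2 sample stood above each DMSO sample (log2 fold change 0.31, limma, adjusted p = 0.364, with the block 0.00431). Of the other 15 zinc carriers, Slc39a14 (ZIP14) was lower by this test, from 8.93 to 8.02, 10.6 to 9.55 and 11.0 to 9.47 FPKM. Among mitochondrial carriers, 4 of 35 were higher, close to the 10.4% of all rows: the citrate carrier Slc25a1, the aspartate/glutamate carrier Slc25a13, the ATP-Mg/phosphate carrier Slc25a24, and Slc25a16, with log2 fold changes of 0.14 to 0.18. With 1 sample left out of the blocked fit, Slc25a13 was called in 5 of 9 fits, Slc25a16 in 2, and Slc25a1 and Slc25a24 in 1. Both Slc33a1, which brings acetyl-CoA into the endoplasmic reticulum, and the choline transporter Slc44a1 were higher by 0.19 on the log2 scale. Among the members for inorganic ions, the mitochondrial sodium/calcium exchanger Slc24a6 was higher by 0.24. Slc15a2, a peptide transporter, was the only call among 22 members for amino acids and peptides, beside 15.0% of all rows called. Its log2 fold change was 0.40 with an adjusted p of 0.038 with the block (limma), and its conditions overlapped. With 1 sample left out of the blocked fit, Slc15a2 was called in 3 of 9 fits. Further higher members were Slc10a7, Slc29a3, Slc37a3, Slc35f5 and Slc35b1.

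The members lower with E2 were each called only with the block, and their log2 fold changes of FPKM + 1 lay between -0.49 and -0.16, a scale that understates the change of weakly expressed rows. In the blocked fit none of them was called without the 3 samples numbered 1, and 1 lower call was made without DMSO replicate 2. Row 2 of Slc13a2, a sodium/dicarboxylate cotransporter, measured 2.53, 2.68 and 2.75 FPKM in DMSO, 1.57, 1.76 and 1.47 in E2, and 1.83, 2.17 and 2.58 in 4OHT. Its E2 samples were below all others, with a ratio of means of 0.603 and a log2 fold change of -0.49, or -0.70 with a pseudocount of 0.1 (limma, adjusted p = 0.0915, with the block 0.0142). The gene has another row in the file, which showed -0.51 and was not called (limma, adjusted p = 0.419, with the block 0.0681). Slc16a13, a member of the monocarboxylate family, measured 22.0, 21.7 and 20.0 FPKM in DMSO, 16.5, 18.2 and 17.6 in E2, and 19.2, 19.3 and 18.9 in 4OHT, which gives 3 separate levels with 4OHT between the others (E2 versus DMSO -0.27, limma, adjusted p = 0.102, with the block 0.0147). The equilibrative nucleoside transporter Slc29a1 measured 31.6, 45.4 and 38.5 FPKM in DMSO and 27.5, 35.5 and 32.9 in E2, lower within every pair while the conditions overlapped (-0.25, limma, adjusted p = 0.612, with the block 0.0142). Slc48a1, a heme transporter, measured 75.8, 83.4 and 82.7 FPKM in DMSO and 60.2, 73.6 and 71.0 in E2, without overlap (-0.24, limma, adjusted p = 0.371, with the block 0.0131). It overlaps Hdac7 on the opposite strand. The other lower members were Slco1a6, an organic anion carrier (-0.31), Slc35f2 (-0.27), the mitochondrial iron importer Slc25a37 (-0.27), Slc22a23 (-0.18) and Slc39a14 (-0.16).

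**Figure D3:**
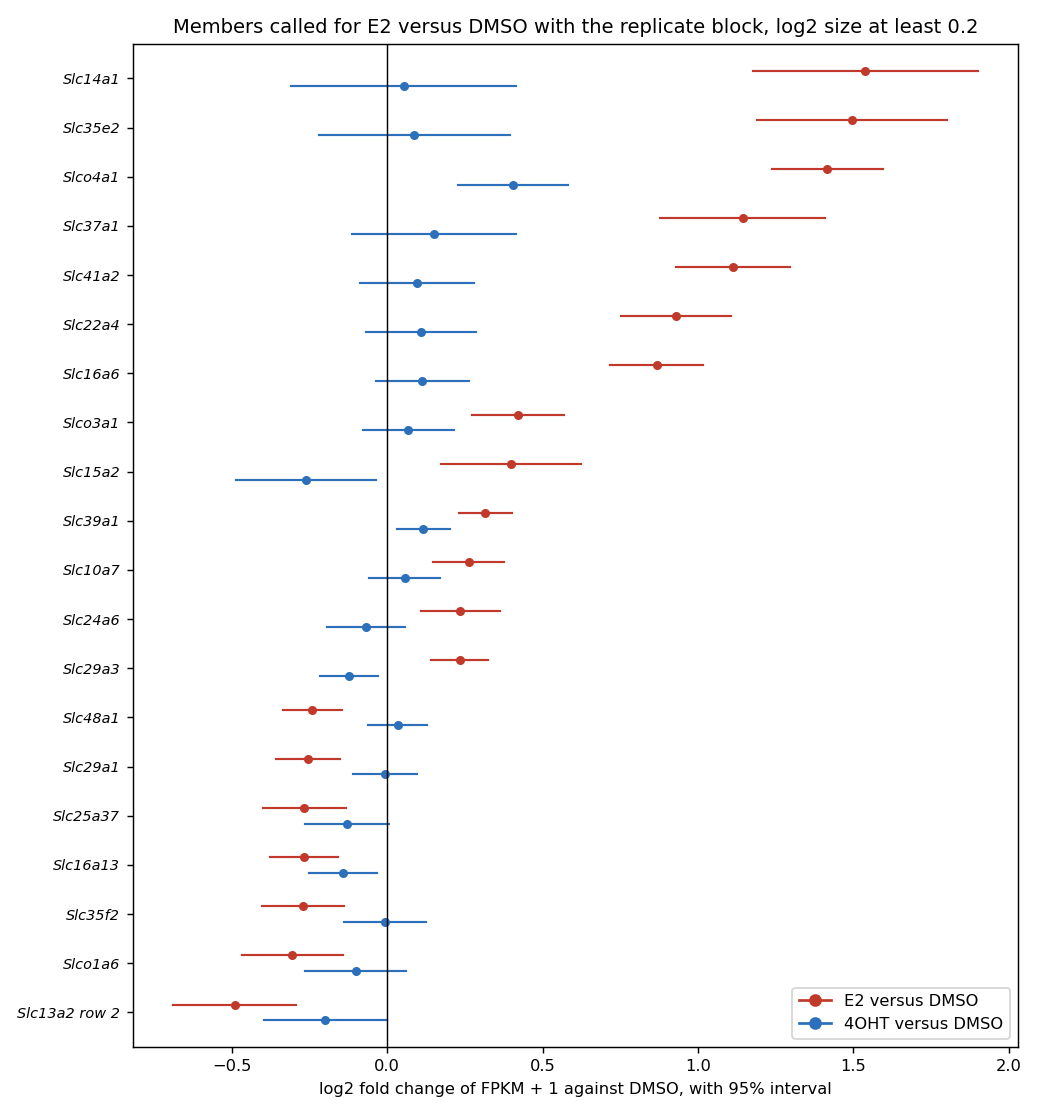
Log2 fold change of FPKM + 1 against DMSO for the 20 members called for E2 with the replicate block and changed by at least 0.2 on the log2 scale, with the 95% interval of that fit, for E2 and for 4OHT. The intervals are not adjusted for the number of rows tested. For E2, 7 members lie above 0.5. For 4OHT, Slco4a1 at 0.40 is the farthest of these 20 from 0, and no 4OHT value was called.

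The second comparison asked whether 4OHT alone changed transporter genes. By limma, 0 of 171 members were called with or without the block, as were 0% of all rows tested (background 0% in both fits). At an unadjusted p under 0.05 the count was 5 members (2.92%) without the block, against 2.76% of all rows, and 25 (14.6%) with it, against 13.1%. In all 3 pairs, 52 members (30.4%) were higher with 4OHT and 27 (15.8%) lower, beside 30.2% and 15.6% of all rows. The smallest adjusted p of a member without the block was 1.00. The median log2 fold change was 0.03 over the members and 0.03 over all rows. Over the 23 members called higher with E2, the median difference from DMSO was 0.24 with E2 and 0.06 with 4OHT on the log2 scale. These comparisons share the DMSO samples. The 23 were also chosen by their E2 values, which favours a larger median with E2, so the medians are a description only.

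The values of single members for 4OHT are given without a call. Slco4a1 had the largest positive difference among members without an exact 0 at 0.40 with an SE of 0.11 (limma, adjusted p = 1.00, with the block 0.321). The means were 4.88 FPKM in DMSO and 6.81 in 4OHT, and the 95% interval with the block ran from 0.23 to 0.58. This interval is not adjusted for the number of rows tested or for picking the largest difference. The next were Slc26a10, a weakly expressed row with 1.44, 1.65 and 1.39 FPKM in DMSO and 1.88, 2.27 and 1.75 in 4OHT, and Slc25a39 with 110, 112 and 107 FPKM in DMSO and 132, 141 and 112 in 4OHT. In both, the 4OHT samples stood above the DMSO samples, for Slc25a39 with little space between the nearest of them. Among members lower in all 3 pairs, the most negative were row 1 of Slc13a2 (-0.37), Slc15a2 (-0.26) and Slc22a17 (-0.24), whose conditions overlapped.

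The third comparison set the ligands against each other. E2 versus 4OHT gave 1 member called without the block (0.585%), against 0.159% of all rows tested. This was Slco4a1, at a log2 fold change of 1.01 with an SE of 0.11 (limma, adjusted p = 0.0296). With 1 sample left out it was called in 2 of 9 fits without the block and in 9 of 9 with it. With the block, 35 members (20.5%) were called against 16.2% of all rows. Of these, 23 were higher with E2 (13.5%), beside 8.63% of all rows, and 12 lower (7.02%), beside 7.60%. The higher members again included Slc14a1 (1.49), Slc35e2 (1.41), Slc41a2 (1.02), Slc37a1 (0.99), Slc22a4 (0.82) and Slc16a6 (0.75), each called in 9 of 9 fits with the block and 1 sample left out. Without the 3 samples numbered 1, the blocked fit called all of these except Slc22a4 (limma, adjusted p = 0.0520). The dose of 4OHT was 100 times that of E2 in molar terms, and a single dose of each was measured.

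The members lower with E2 than with 4OHT were called only with the block, differed by small amounts and made up no larger a share than among all rows. In that fit 0 of them were called without the 3 samples numbered 1 and 0 without 4OHT replicate 1. Slc7a5, the light chain of the LAT1 exchanger for large neutral amino acids, measured 36.4, 56.7 and 56.2 FPKM in E2 and 45.9, 85.6 and 66.0 in 4OHT, lower in each pair with overlapping conditions (-0.38, limma, adjusted p = 0.617, with the block 0.033). Slc3a2, its heavy chain, measured 88.6, 103 and 101 FPKM in E2 and 88.9, 117 and 101 in 4OHT and was not called. Slc16a1, the lactate and pyruvate carrier MCT1, measured 10.4, 12.3 and 12.6 FPKM in E2 and 13.1, 17.2 and 14.5 in 4OHT, with every E2 sample below every 4OHT sample (-0.31, limma, adjusted p = 0.463, with the block 0.0352). Slc25a5, the most abundant member, measured 669, 742 and 700 FPKM in E2 and 777, 962 and 764 in 4OHT, again without overlap (-0.24, limma, adjusted p = 0.45, with the block 0.0315). For Slc2a1, the glucose transporter GLUT1, the difference was -0.17 (limma, adjusted p = 0.689, with the block 0.0499). With 1 sample left out of the blocked fit, Slc7a5 was called in 4 of 9 fits, Slc16a1 and Slc25a5 in 2 and Slc2a1 in 1. None of these 4 genes was called for either ligand against DMSO. The scaffold Slc9a3r2 (-0.29), Slc35f2 (-0.26), Slc48a1 (-0.27) and Slc29a1 (-0.25) were also lower with E2.

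Part of the spread within conditions followed the replicate number. Sample 1 lay above samples 2 and 3 in all 3 conditions for 39 members (22.8%), beside 22.1% of all rows, and below them for 44 members (25.7%), beside 19.6%. Among amino acid and peptide carriers, 7 of 22 were below and 3 above. This lean was not particular to them. Of 35 mitochondrial carriers 13 were below and 7 above, and of 9 members for nucleosides and vitamins 4 were below and 2 above. Other classes leaned the other way, such as inorganic ions and pH (7 above, 5 below) and metals other than zinc (4 above, 1 below). The cationic amino acid transporter Slc7a3 measured 2.98, 2.37 and 2.76 FPKM in the samples numbered 1 of DMSO, E2 and 4OHT, against 4.96 to 9.44 in the other 6. Slc7a5 measured 36.4 to 45.9 FPKM in the samples numbered 1 and 56.2 to 85.6 in the others. The glycine transporter Slc6a9 measured 2.18 to 3.00 FPKM against 4.26 to 5.80, the cationic transporter Slc7a1 25.6 to 30.1 against 38.1 to 41.7, and the neutral amino acid transporter Slc1a4 4.82 to 5.61 against 7.01 to 8.05. In each of these 5 genes the samples numbered 1 did not overlap with the rest. The cystine/glutamate exchanger Slc7a11 and Slc3a2 were lower in the same samples, by a mean difference of -0.24 each on the log2 scale. Atf4, a transcription factor that controls many amino acid transporter genes, measured 152 to 168 FPKM in the samples numbered 1 and 197 to 239 in the others, and its part was not tested. What the numbers stand for is not given in the labels, so this is a description of the samples and not of a treatment.

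**Figure D4:**
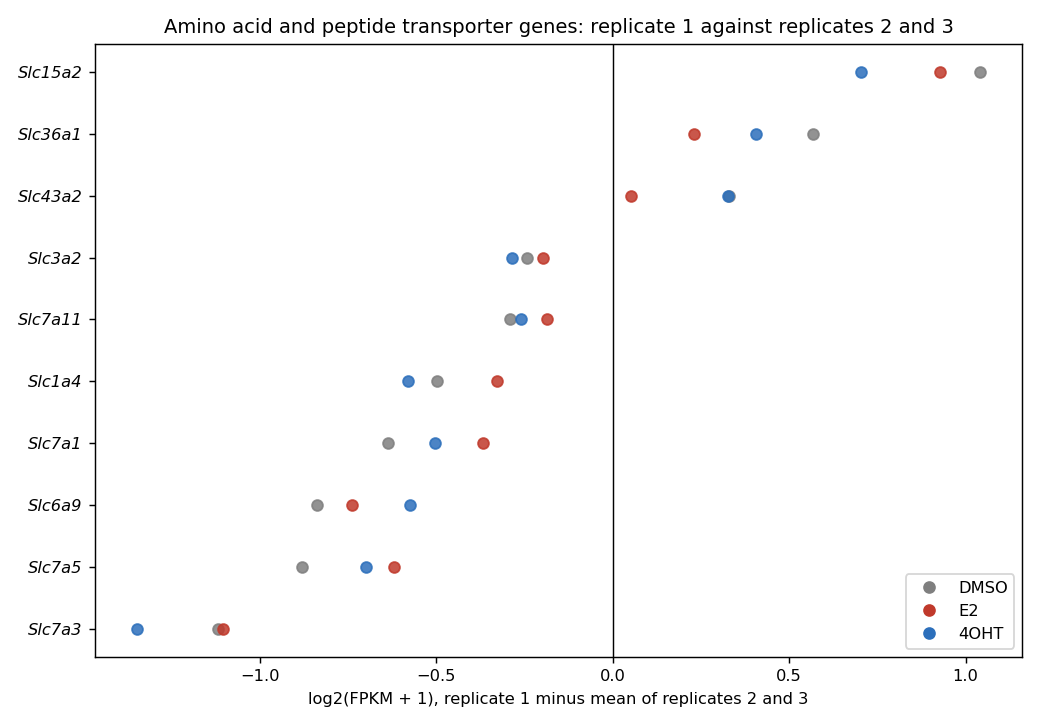
Difference in log2(FPKM + 1) between replicate 1 and the mean of replicates 2 and 3 in DMSO, E2 and 4OHT, for the 10 amino acid and peptide carriers where sample 1 was above or below both others in all 3 conditions. The 7 lower genes range in their mean difference from -1.19 for Slc7a3 to -0.24 for Slc3a2, and Slc15a2 is the farthest above 0 at 0.89.

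Exact zeros stood in 5 members (2.92%), beside 2.16% of all rows tested, and these rows were set apart. Slc6a6, the taurine transporter, was listed at 0 in DMSO samples 1 and 2 and E2 samples 1 and 3, and at 101 to 124 FPKM in the other 5 samples. Slc35a3, a Golgi carrier of UDP-N-acetylglucosamine, was listed at 0 in 5 samples (DMSO 2 and 3, E2 1 and 3, 4OHT 2) and at 16.4 to 18.7 FPKM in the other 4. Slc35b4 was listed at 0 in 4OHT sample 1 only and at 18.7 to 23.6 FPKM elsewhere. Slc7a6, an amino acid exchanger light chain, and Slc7a6os, the gene next to it on the opposite strand, were both listed at 0 in DMSO sample 3 and at 34.0 to 62.5 and 18.7 to 23.4 FPKM in the others. No value between 0 and these levels was present in any of the 5 rows. Ucp2, a mitochondrial carrier with another symbol, was likewise listed at 0 in DMSO sample 2 and 4OHT sample 3 and at 211 to 235 FPKM in the other 7. The fitted log2 fold changes of these rows, such as 4.52 for Slc6a6 in 4OHT versus DMSO, rest on which samples hold the zeros, and with the zeros kept none of the 5 rows was called in any of the 3 comparisons. With zeros set to missing, the counts of called members without the block were 4 for E2 and 0 for 4OHT, each against DMSO, and 2 between the ligands. With the block as well, Slc7a6 was the only one of the 5 called: it was lower with E2 than with DMSO by a log2 fold change of -0.42 (limma, adjusted p = 0.00137) and lower than with 4OHT by -0.38 (limma, adjusted p = 0.00235), the opposite sign to the 1.61 fitted for E2 versus DMSO when the 0 was kept as a value.

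**Figure D5:**
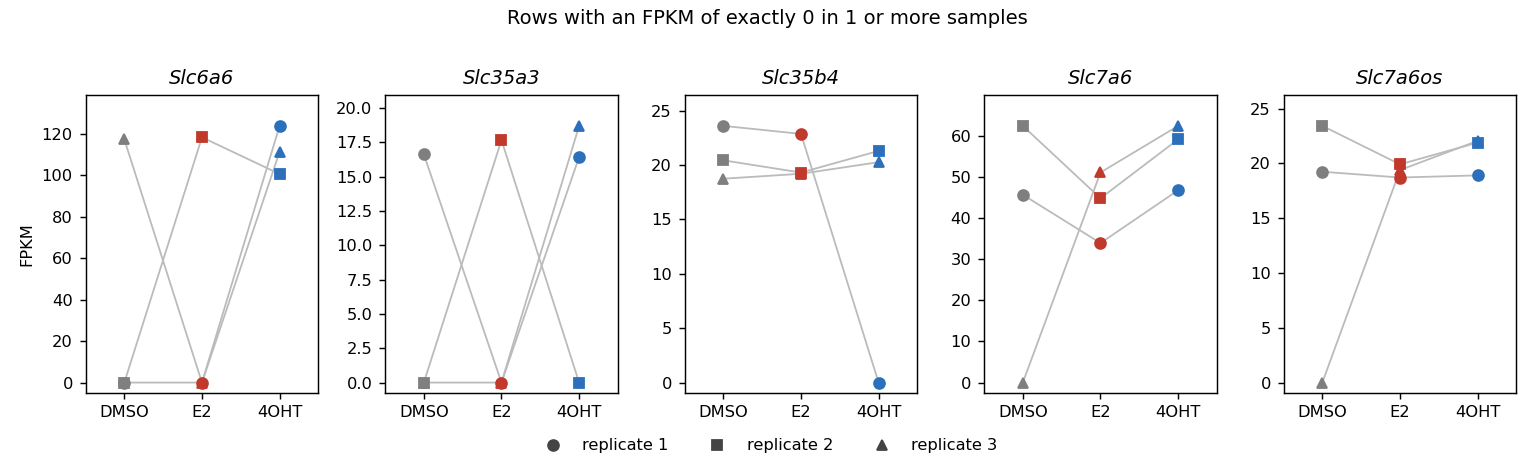
FPKM in each sample for the 5 members with an exact 0, by condition, with a shape for each replicate number and grey lines joining samples of the same number. Each row holds either 0 or a level near its other samples. The zeros of Slc6a6 and Slc35a3 fall partly in the same samples. Those of Slc7a6 and Slc7a6os fall in DMSO sample 3, where Slc35a3 is at 0 as well.

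Other genes of solute transport were read from 2 lists, partners and regulators of carriers and carriers with other symbols. Of the 21 partners and regulators tested, 2 were higher with E2 than with DMSO without the block and 4 with it, and none was lower, beside 0.512% of all rows called without the block and 10.4% higher and 4.63% lower with it. Sgk1, a kinase that raises the surface level of many transporters, measured 52.4, 33.1 and 36.8 FPKM in DMSO, 122, 122 and 112 in E2, and 36.2, 38.6 and 36.2 in 4OHT (E2 versus DMSO 1.55, limma, adjusted p = 0.0104). Atp1b1, the beta subunit of the sodium pump, measured 34.1, 33.9 and 33.6 FPKM in DMSO, 58.0, 50.0 and 51.1 in E2, and 32.9, 35.7 and 32.7 in 4OHT (0.63, limma, adjusted p = 0.0122). For both, the E2 samples stood above all others. Hif1a (0.18) and Atp1b3 (0.15) were called with the block alone. Of the 21 tested carriers with other symbols, 0 were called without the block and 4 were higher with it, beside 0.512% and 10.4% of all rows. Both lists were chosen with earlier results of these data known. Ctns, the lysosomal cystine exporter, measured 17.5, 10.1 and 12.3 FPKM in DMSO, 47.0, 33.1 and 35.4 in E2, and 24.4, 13.5 and 14.8 in 4OHT, with all E2 samples above the rest (1.49, limma, adjusted p = 0.0708, with the block 0.000385). Tmem20, an SLC35 relative, measured 17.5, 5.61 and 3.80 FPKM in DMSO, 41.5, 15.8 and 12.3 in E2, and 27.7, 9.89 and 6.32 in 4OHT, higher in each pair with overlapping conditions (1.34, limma, adjusted p = 0.543, with the block 0.000411). Mtch1 (0.17) and Tmem165 (0.11) were the other calls. In 4OHT versus DMSO, neither list had a call in either fit. The study, which used cuffdiff, does list Tmem20 among the genes raised by 4OHT. Here its log2 fold change for 4OHT versus DMSO was 0.65 (limma, adjusted p with the block 0.231).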

How the data were processed

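Reads were trimmed by the authors and aligned with TopHat2 2.0.8b to mm10, and FPKM were computed with Cufflinks from a UCSC annotation. The submitters' processing notes list Cuffdiff 2.1.1. The deposited values are these FPKM, 1 file per sample, and whether a further scaling between libraries entered them is not given in the sources used here. Condition and replicate number came from the labels. Here log2(FPKM + 1) of all 9 samples was fitted with limma 3.58.1 (trend) in R 4.3.3, with 1 coefficient per condition, over 11339 rows with at least 1 FPKM in at least 3 samples, and p was adjusted by the Benjamini-Hochberg method within each contrast. The code was tested on simulated data.

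The replicate number was added as a block in a further fit. Over the 11094 tested rows without an exact 0, every pair of same-numbered samples deviated together from the condition means (correlation 0.523 to 0.828), above the limit of 0.1 set for using the pairing, which comes from the labels' numbers. Over all 11339 rows, which the blocked fit used, the correlations were 0.0527 to 0.293, some of them below that limit. There, E2 sample 2 and DMSO sample 3, which differ in number, correlated at 0.0951. This was above the 0.0626 of DMSO sample 2 with E2 sample 2. Alternatives tried were no filter, a pseudocount of 0.1, upper-quartile scaling, only the 6 samples compared, exact zeros as missing, an adjusted p under 0.01, and each sample left out. Added after the data were seen were the block with a sample left out and fits without the 3 samples numbered 1.

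The members, substrate classes and lists were chosen with earlier results of these data known. Named were members called without the block, up to 6 per direction and contrast with the largest change among those called with it and moving alike in all 3 pairs (for 4OHT versus DMSO the 3 largest, as values), the highest of each class, rows with an exact 0, and the 3 rows on each side of the limit. Further members and partners were named after their values were seen. Coordinates and overlaps came from GENCODE for GRCm38, and promoter windows from RefSeq (GRCm38.p6), which had 5 windows for 4 of the 8 genes most raised by E2. Several symbols have more than 1 row, which were kept apart. Some items are not reported here.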

Additional observations from a re-analysis of the deposited data

How the results depend on the processing

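The replicate block moved the counts of called members most, from 4 to 32 for E2 versus DMSO and from 1 to 35 for E2 versus 4OHT, while 4OHT versus DMSO stayed at 0 in every setting run. For E2 versus DMSO the count was 2 with a pseudocount of 0.1, 1 without the filter on low values, 2 with upper-quartile scaling, 1 with only the 6 samples compared, 1 at an adjusted p under 0.01, 36 with zeros missing and the replicate block, and 9 without the 3 samples numbered 1 with the block. It ranged from 1 to 2 with 1 sample left out and in the blocked fit it was 20, 9 and 11 without DMSO replicates 1, 2 and 3, 17, 27 and 14 without E2 replicates 1, 2 and 3, and 25, 28 and 24 without 4OHT replicates 1, 2 and 3. For E2 versus 4OHT the count was 0 without the filter, 0 with only the 6 samples compared, 0 at an adjusted p under 0.01, 2 with zeros missing, 43 with zeros missing and the block, 3 without the samples numbered 1 and 6 without them with the block. It ranged from 0 to 1 with 1 sample left out, and in the blocked fit it was 29, 25 and 16, then 21, 14 and 12, then 8, 12 and 21 in the same order of samples left out. Slco4a1 for E2 versus DMSO was the only call present in every one of these fits. The causes were not tested.

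Slc15a2 in 4OHT versus DMSO, not called, ranged from -0.50 to 0.085 with 1 sample left out, the positive value coming without DMSO replicate 1. Over the named members, 424 of 512 planned values kept their direction and side of the threshold, 44 lost a call and 43 gained one; of 64 added values the counts were 45, 4 and 15. With 3 samples per condition and FPKM without counts, small differences and weakly expressed rows are the least certain.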
